A study of Homo sapiens with 17 samples.

Results

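The genes described here are 7 known targets and feedback inhibitors of the transcription factor STAT5, namely CISH, SOCS1, SOCS2, SOCS3, PIM1, PIM2 and BCL6. They were chosen by name, with earlier results of these data known, by a rule that uses no measured value. They come from 18377 genes that had a probe set annotated with 1 gene symbol. Each of the 7 had a single such probe set. All 7 passed the filter on low signal in both fits below.

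RNA was measured on 17 arrays of NKYS, an established cell line from a human NK/T-cell lymphoma, kept in medium with recombinant interleukin-2 and electroporated with siRNAs or plasmids. The interleukin-2 receptor signals through the kinase JAK3, and all groups shared this cytokine. The first arm has 2 arrays with JAK3 siRNA against 2 with a control siRNA of their own. A second arm has 2 arrays with siRNA for EZH2, the histone H3 methyltransferase of Polycomb repressive complex 2, and the titles tie each of them to 1 of its 2 control siRNA arrays. The plasmid arrays have full-length EZH2 on 6 arrays and an empty vector on 2, in 2 numbered sets of 4 (Y244D, Y244A, wild type and vector). Y244D replaces a tyrosine that JAK3 phosphorylates with an aspartate, which resembles the phosphorylated residue, and Y244A replaces it with alanine, which cannot carry phosphate. The last array has EZH2 without its SET domain, where the catalytic site lies, and no set number. The wild-type array without a number in its title was placed in set 2 by its transfection code. For the 3 set 2 arrays with full-length EZH2, titles and transfection fields disagree on the construct, and the titles are used below. Nothing in the labels says that replicate arrays are of separate cultures, so the p-values rest on array-to-array spread that may be technical. The cells are a single tumour line, and endogenous EZH2 is present in every plasmid group.

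Cytokine receptors of the interleukin-2 family bind JAK1 and JAK3, which phosphorylate STAT5, and STAT5 then enters the nucleus and binds DNA at palindromes with the core TTCNNNGAA. Among the genes it switches on are inhibitors that act back on the pathway: CISH occupies phosphorylated receptor sites, SOCS1 and SOCS3 block JAK kinase activity, and SOCS2 damps growth hormone and other cytokine receptors. PIM1 and PIM2 are STAT5-induced serine/threonine kinases that promote survival and protein synthesis. BCL6, a transcriptional repressor, is by contrast known to be repressed by STAT5 in T cells and in B-cell lymphoma, and its targets overlap those that STAT5 activates. In NK cells CISH is known as a brake on interleukin-15 responses.

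The promoters of CISH, SOCS1 and BCL6 are shown because these 3 genes carry the differences below. Each runs 5′ to 3′ on the minus strand of GRCh38.p14, from 250 bases before to 50 bases after a RefSeq start, and capitals mark TTCNNNGAA. CISH is at chr3:50611725-50612024, SOCS1 at chr16:11256155-11256454 and BCL6 at chr3:187736452-187736751.
CISH: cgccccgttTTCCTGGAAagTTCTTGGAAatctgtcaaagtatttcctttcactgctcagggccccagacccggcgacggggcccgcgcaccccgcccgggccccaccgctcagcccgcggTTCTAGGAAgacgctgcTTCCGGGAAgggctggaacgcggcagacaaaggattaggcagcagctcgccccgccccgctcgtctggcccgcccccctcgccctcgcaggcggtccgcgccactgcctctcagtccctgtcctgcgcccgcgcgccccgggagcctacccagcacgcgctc
SOCS1: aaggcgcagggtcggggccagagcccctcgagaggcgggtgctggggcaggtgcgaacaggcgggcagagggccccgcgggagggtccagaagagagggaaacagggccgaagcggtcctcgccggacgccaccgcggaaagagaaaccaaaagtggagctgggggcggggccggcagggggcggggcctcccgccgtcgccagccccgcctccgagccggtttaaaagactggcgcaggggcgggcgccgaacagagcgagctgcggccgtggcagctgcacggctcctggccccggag
BCL6: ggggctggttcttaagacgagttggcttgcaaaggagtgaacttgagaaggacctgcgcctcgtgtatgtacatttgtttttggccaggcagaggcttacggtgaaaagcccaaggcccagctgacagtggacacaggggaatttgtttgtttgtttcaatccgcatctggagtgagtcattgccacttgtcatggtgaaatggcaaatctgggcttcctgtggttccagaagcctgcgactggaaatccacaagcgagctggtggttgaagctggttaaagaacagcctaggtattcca
The CISH promoter held 4 matches, which begin at -241, -230, -129 and -112 from the start. The windows of SOCS1, SOCS3, PIM1, PIM2 and BCL6 held 0 matches. A single window was searched for each gene. The count therefore does not cover other starts of a gene or sequence outside its window. The motif is a palindrome, so that the 2 strands give the same count, and the 4 matches do not overlap. Of 35116 RefSeq promoters of this length, 7.66% held TTCNNNGAA at least once, 0.456% held it in 2 or more places and 7 promoters held 4 or more. SOCS2 was not analysed here.

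Across arrays, intensities are linear signal as deposited, and array medians lay between 60.3 and 72.98. The spread of an array, taken as the interquartile range of its log2 values, was 2.27 to 2.33 in siRNA cells, 1.99 to 2.18 in plasmid set 2 and 1.79 to 2.03 in set 1. No 2 arrays held identical values. Of 12 NK cell markers, 8 to 9 lay above the array median on siRNA arrays and 7 to 9 on plasmid arrays, with a summed intensity of 7480 to 11500 and 4870 to 7110. Of 5 B cell markers 0 to 1, and of 7 T cell markers 1, lay above the median on siRNA arrays. On plasmid arrays of the 2 sets these counts were 0 to 3 and 1 to 2. Of 6 monocyte markers, 2 lay above it on siRNA arrays and 1 to 4 on these plasmid arrays. Of 9 epithelial and fibroblast markers, 2 and 2 to 6 did. In bulk RNA, fewer cells of a type and less RNA per cell cannot be told apart. JAK3 siRNA lowered its target, with JAK3 at 138 and 137 in JAK3 siRNA cells against 322 and 326 in control siRNA cells (log2 change -1.24, SE 0.069, limma adjusted p = 5.7e-06). EZH2 was at 501 and 489 in EZH2 siRNA cells against 926 and 691 in their control siRNA cells (log2 change -0.69, SE 0.088, limma adjusted p = 0.0275).

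JAK3 siRNA lowered CISH and SOCS1 and raised BCL6, while SOCS2, SOCS3, PIM1 and PIM2 did not pass the test. The comparison asks how genes downstream of the interleukin-2 receptor respond when its kinase is reduced. It used limma on log2 intensity over the 8 siRNA arrays, with p-values adjusted over 14466 genes and called at 0.05. In all, 1.38% of genes were called, 0.622% higher and 0.760% lower, against 3 of the 7 genes described here (1 higher, 2 lower). Their median log2 change was -0.18, and that of all genes tested was -0.01.

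CISH, the receptor-binding inhibitor, had an intensity of 241 and 249 in JAK3 siRNA cells, against 350 and 349 in control siRNA cells. Both siRNA arrays lay below both controls, which differed from each other by far less than from the siRNA arrays. The means were 245 ± 5.51 in JAK3 siRNA cells and 349 ± 0.873 in control siRNA cells (SD, n = 2 each), a 1.42-fold lower level (log2 change -0.51, SE 0.083, limma adjusted p = 0.00964).

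SOCS1, the inhibitor of JAK kinase activity, was at 156 and 155 in JAK3 siRNA cells, against 220 and 219 in control siRNA cells. Here too the groups were separate and the arrays within each nearly equal. The level was 1.41-fold lower in JAK3 siRNA cells (log2 change -0.50, SE 0.069, limma adjusted p = 0.0038).

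The repressor BCL6 moved the other way, with 196.7 and 197.3 in JAK3 siRNA cells against 118 and 101.2 in control siRNA cells. Both JAK3 siRNA arrays lay above both controls. Its level was 1.80-fold higher (log2 change 0.85, SE 0.169, limma adjusted p = 0.0298), and this change exceeded that of 99.98% of the genes tested. The control siRNA arrays also differed between arms. Mean log2 level in the JAK3 arm's controls minus that in the EZH2 arm's controls was -0.45 for BCL6, 0.28 for SOCS1 and 0.02 for CISH. For BCL6 and SOCS1, part of the distance from the JAK3 siRNA arrays was thus also present between controls, which was not tested.

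The other SOCS genes were lower on both JAK3 siRNA arrays without passing the test. SOCS2 had 179 and 173 in JAK3 siRNA cells against 210 and 201 in control siRNA cells (log2 change -0.23, limma adjusted p = 0.213). SOCS3 had 255 and 277 in JAK3 siRNA cells against 303 and 301 in control siRNA cells (log2 change -0.18, limma adjusted p = 0.516). The PIM kinases differed least. PIM1 was at 591 and 531 in JAK3 siRNA cells against 603 and 547 in control siRNA cells, and the groups overlapped (log2 change -0.04, limma adjusted p = 0.916). PIM2 was at 1722 and 1693 in JAK3 siRNA cells against 1557 and 1568 in control siRNA cells (log2 change 0.13, limma adjusted p = 0.557). Counted by position alone, 4 of the 7 genes had both JAK3 siRNA arrays below both controls, 2 had both above and 1 overlapped. Among all genes, 27.1% lay wholly lower and 21.2% wholly higher, so that such separation is common with 2 arrays in a group.

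All 3 calls were lost when any 1 of the 4 arrays of this arm was left out, the lone array then being taken to vary like the others, with limma adjusted p of 0.102 to 0.132 for CISH, 0.0614 to 0.0811 for SOCS1 and 0.129 to 0.259 for BCL6. The log2 changes then stayed between -0.53 and -0.49 for CISH, -0.50 and -0.49 for SOCS1, and 0.73 and 0.96 for BCL6. The BCL6 call also ended under 5 other settings, quantile normalization among them (limma adjusted p = 0.0635), and that of CISH with no filter on low signal (limma adjusted p = 0.0522). Markers of NK cells summed to 9750 to 9830 in JAK3 siRNA cells and 9570 to 9680 in control siRNA cells, although 2 of 11 tested were lower, KLRD1 (log2 change -0.47, limma adjusted p = 0.00991) and NCAM1 (log2 change -0.36, limma adjusted p = 0.0298). Their part in the result was not tested.

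**Figure D1:**
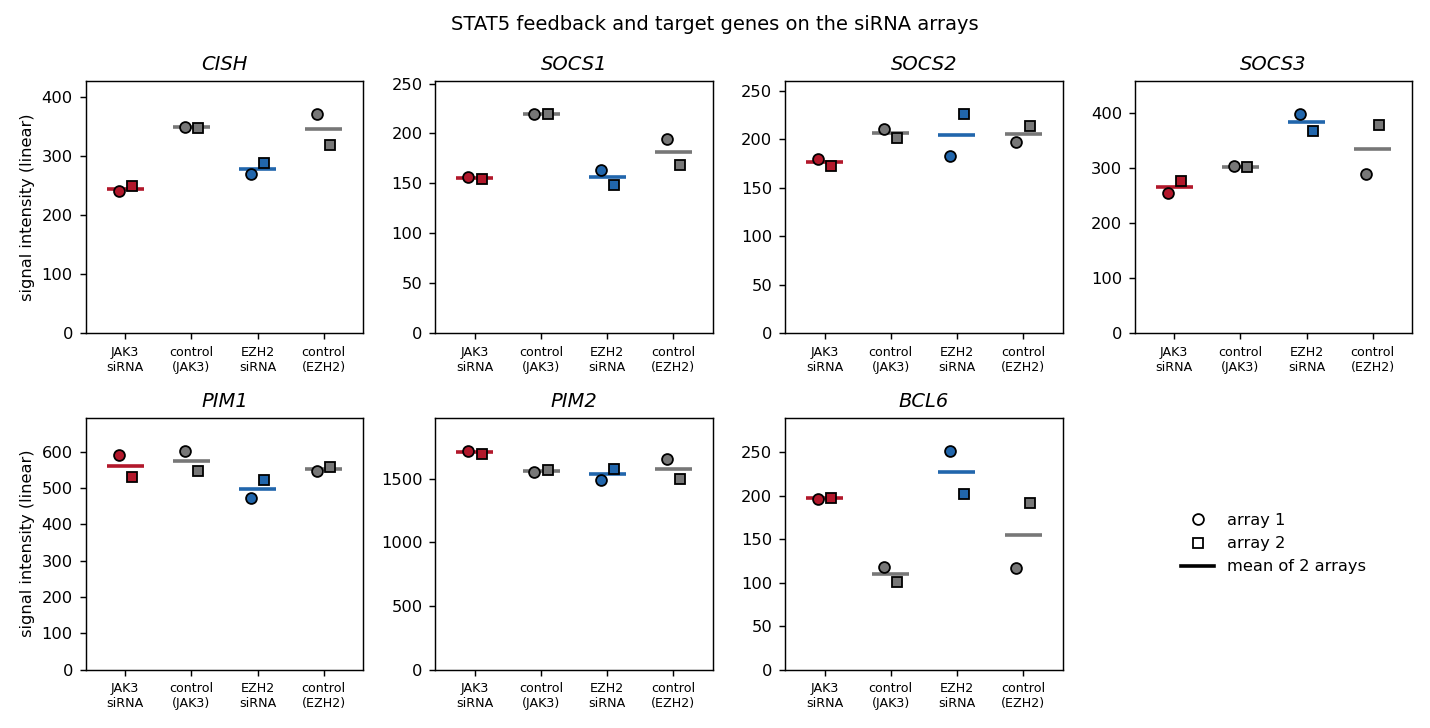
Intensity of CISH, SOCS1, SOCS2, SOCS3, PIM1, PIM2 and BCL6 on the 8 siRNA arrays, on a linear axis from 0, with a point for each array and a line at each group's mean. In the JAK3 arm CISH and SOCS1 are lower and BCL6 is higher in both siRNA arrays than in both controls; in the EZH2 arm the BCL6 controls lie apart, at 117 and 192.

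Genes that sit elsewhere in the pathway were taken from lists. The lists were chosen with earlier results of these data known, so that counts of calls in them, here and below, are descriptions and not tests of the pathway. Of 13 receptor, JAK and STAT genes, JAK3 itself was the only one called in JAK3 siRNA cells. The STAT5 genes were not called, with a log2 change of 0.07 for STAT5A (limma adjusted p = 0.734) and 0.07 for STAT5B (limma adjusted p = 0.789). None of 14 other inhibitors of JAK-STAT signalling passed the test. The 2 with the smallest p were PIAS3, an E3 SUMO ligase that inhibits STAT3 (log2 change 0.11, limma adjusted p = 0.635), and SOCS7 (log2 change -0.10, limma adjusted p = 0.637).

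Other genes known to be induced by interleukin-2 and STAT5 numbered 21, of which 4 were called lower and 1 was called higher in JAK3 siRNA cells, where 0.760% and 0.622% of all genes were; 16 of the 21 had a log2 change below 0 and 5 above. DUSP6, a phosphatase of ERK kinases, fell most among them (log2 change -1.17, SE 0.076, limma adjusted p = 1.53e-05). The cytokines IL10 (log2 change -0.86, limma adjusted p = 0.000291) and OSM (log2 change -0.69, limma adjusted p = 0.00619) fell as well, as did BCL2L1, which encodes the survival protein BCL-XL (log2 change -0.44, limma adjusted p = 0.0124). DUSP4, another ERK phosphatase, rose (log2 change 0.45, limma adjusted p = 0.0379). The median over the 21 was -0.14. Among 9 genes known to be repressed by interleukin-2 and STAT5 or by BCL6, only the chemokine receptor CXCR4 was called, and it was lower (log2 change -0.57, limma adjusted p = 0.00191), with a list median of 0.10.

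EZH2 siRNA gave no call among the 7 genes. In limma 2253 of the 14466 genes tested had an unadjusted p under 0.05, among them 3 of the 7. The 3 were CISH, SOCS1 and BCL6, the genes called in JAK3 siRNA cells, and their log2 changes had the same signs in both arms. The arms have separate control arrays. Of all 14466 genes, 0.940% were called, 0.373% higher and 0.567% lower. The median log2 change of the 7 was -0.04, and that of all genes tested was -0.0042.

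CISH had an intensity of 270 and 289 in EZH2 siRNA cells, against 372 and 319 in their control siRNA cells. Each array lay below both controls, with log2 differences of -0.46 and -0.15 within the pairs (log2 change -0.31, limma adjusted p = 0.0993). SOCS1 was at 163 and 149 in EZH2 siRNA cells, against 194 and 168 in control siRNA cells (log2 change -0.21, limma adjusted p = 0.158). BCL6 was at 252 and 202 in EZH2 siRNA cells, against 117 and 192 in control siRNA cells (log2 change 0.59, limma adjusted p = 0.119). Nearly all of that difference lay in the first pair, at 1.10 on the log2 scale, and the second pair differed by 0.07.

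SOCS3 also differed between pairs, with 398 and 367 in EZH2 siRNA cells against 290 and 378 in control siRNA cells (log2 change 0.21, limma adjusted p = 0.353). PIM1 was at 473 and 522 in EZH2 siRNA cells, against 547 and 559 in control siRNA cells (log2 change -0.15, limma adjusted p = 0.4). For SOCS2 the values were 183 and 226 in EZH2 siRNA cells against 197 and 213 in control siRNA cells (log2 change -0.01, limma adjusted p = 0.971), and for PIM2 they were 1493 and 1579 in EZH2 siRNA cells against 1655 and 1500.01 in control siRNA cells (log2 change -0.04, limma adjusted p = 0.897). In 3 genes both EZH2 siRNA arrays lay below both controls, in 1 both lay above, and 3 overlapped, where 20.8% of all genes lay wholly lower and 16.6% wholly higher.

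The pairs gave different values. With pairs as a block, leaving out either array of a pair leaves the other pair's difference alone, 1 array against 1, with its error taken from the JAK3 arm on the assumption that it varies alike. On that assumption CISH, SOCS3 and BCL6 were called from the first pair, at log2 changes of -0.46, 0.46 and 1.10, and none of the 7 from the second pair. The spread of the EZH2 arm itself does not enter these calls. The first pair's control array also stood apart in NK cell markers, whose summed intensity was 11500 and 11300 in EZH2 siRNA cells against 7480 and 10700 in control siRNA cells, and 0 of 11 such markers were called. The part of this array in the result is given by the values without it, and the markers' part was not tested.

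**Figure D2:**
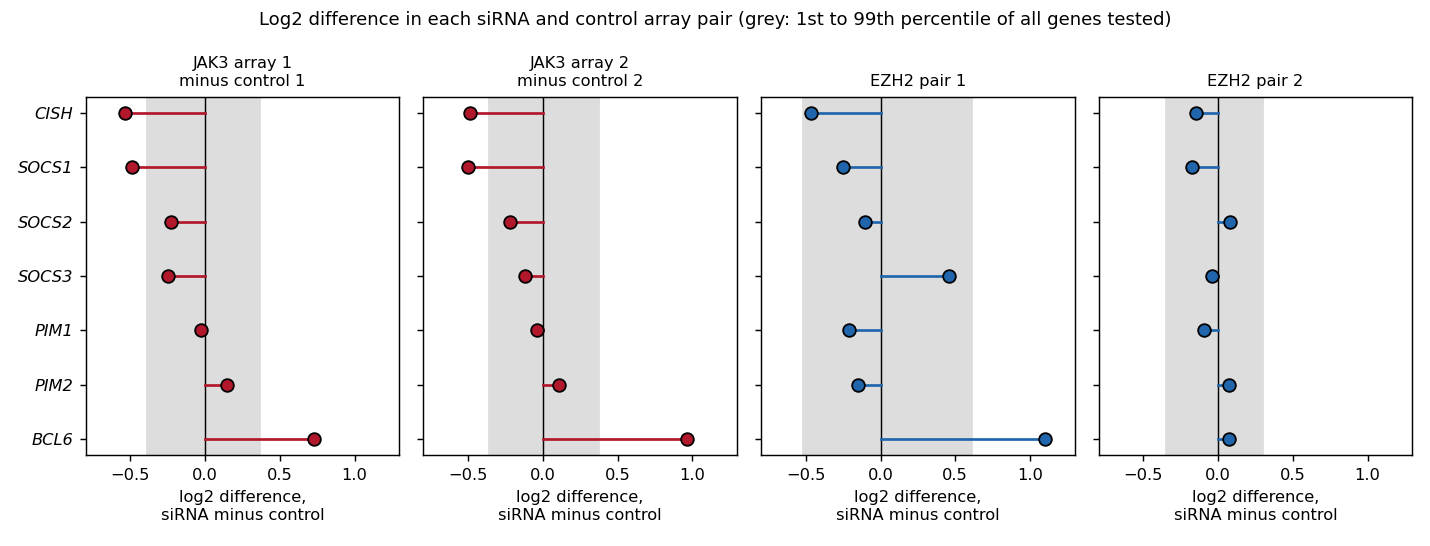
Log2 difference of the 7 genes, siRNA minus control, for arrays of the same number in the JAK3 arm and for each titled pair in the EZH2 arm; the grey band spans all genes tested apart from the most extreme percent on each side. BCL6 lies at 0.73 and 0.96 in the JAK3 arm, beyond the band, and at 1.10 and 0.07 in the EZH2 arm.

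The difference between the JAK3 siRNA and EZH2 siRNA effects was tested in the same fit, and none of the 7 genes passed, with 0.366% of all genes called (0.138% higher, 0.228% lower). Unadjusted two-sided limma p-values were under 0.05 for 2 of the 7, SOCS3 and SOCS1, and for 1177 of the 14466 genes tested. SOCS3 had a log2 change of -0.18 in JAK3 siRNA cells and 0.21 in EZH2 siRNA cells, a difference of -0.39 (SE 0.144, limma adjusted p = 0.447). For SOCS1 the difference was -0.28 (SE 0.098, limma adjusted p = 0.394), for CISH it was -0.21 (SE 0.117, limma adjusted p = 0.716) and for BCL6 it was 0.26 (SE 0.239, limma adjusted p = 0.871). The fall of CISH and SOCS1 and the rise of BCL6 in JAK3 siRNA cells are therefore not shown to differ from what EZH2 siRNA cells did. Left with the second EZH2 pair alone, whose error is then borrowed from the JAK3 arm, the BCL6 difference was 0.78 (limma adjusted p = 0.0465 and 0.0473, by the array left out). With the first pair alone it was -0.25 (limma adjusted p = 0.391 and 0.392), and that of SOCS3 was -0.64 (limma adjusted p = 0.0202 and 0.0204).

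From the other lists, EZH2 siRNA cells had 1 call each among the 14 inhibitors, the 21 induced genes and the 9 repressed genes, and 0 among the 13 receptor, JAK and STAT genes. All were higher: CBLB, a ubiquitin ligase that restrains lymphocyte activation (log2 change 0.52, limma adjusted p = 0.0444), TNFRSF9, a costimulatory receptor (log2 change 0.69, limma adjusted p = 0.0444), and ARRDC3, an alpha-arrestin (log2 change 0.80, limma adjusted p = 0.0496). The effects of the siRNAs differed by the test for 3 of the 21 induced genes, DUSP6 (log2 difference -0.99, limma adjusted p = 0.00203), IL10 (-0.99, limma adjusted p = 0.00299) and TNFRSF9 (-1.10, limma adjusted p = 0.0355), and for CXCR4 among the 9 repressed genes (-0.58, limma adjusted p = 0.0355).

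All full-length EZH2 plasmids, compared with the vector, gave no call among the 7 genes, and none among 14410 genes tested in limma (0% called; 10 genes with an unadjusted p under 0.05, of which 0 were among the 7). EZH2 itself, with a log2 change of 1.85, had the smallest unadjusted p (0.000348), yet its limma adjusted p was 1. All 7 genes had overlapping arrays, where 0.278% of all genes lay wholly higher and 0.486% wholly lower. The means of CISH were 167 ± 67.3 with full-length EZH2 (SD, n = 6) and 168 ± 72.2 with vector (SD, n = 2), and those of SOCS1 were 201 ± 50.7 with full-length EZH2 and 211 ± 85.3 with vector. BCL6 averaged 405 ± 275 with full-length EZH2 and 409 ± 423 with vector. Log2 changes ran from -0.08 for SOCS3 to 0.19 for BCL6, whose SE was 0.830, or 0.158 with the plasmid set as a block, still without a call. Within each group the arrays of set 1 and set 2 lay far apart for BCL6 and CISH, as described next.

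Plasmid set 2 and plasmid set 1 differed in 5 of the 7 genes, with BCL6 higher and CISH, SOCS1, SOCS3 and PIM1 lower in set 2. This comparison asks how far the numbered sets, which by title hold the same 4 kinds of plasmid, match in level; it was adjusted for full-length plasmid or vector. In it 34.5% of 14410 genes were called, 21.8% higher and 12.7% lower, so that a call by itself sets no gene apart. The median log2 change was -0.42 over the 7 genes and -0.02 over all genes tested.

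BCL6 was at 692 with Y244D, 575 with Y244A, 692 with wild type and 709 with vector in set 2 (by title), against 154, 171, 145 and 110 in the same order in set 1. Every set 2 array lay above every set 1 array. Mean intensity was 667 ± 61.5 in set 2 and 145 ± 25.6 in set 1 (SD, n = 4 each), 4.64-fold higher in set 2 (log2 change 2.21, SE 0.137, limma adjusted p = 4.62e-05). By unadjusted p BCL6 ranked 1 of the 14410 genes.

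CISH was lower in set 2, at 104 with Y244D, 124 with Y244A, 93.7 with wild type and 117 with vector, against 199.7, 243.7, 235 and 219 in set 1. No array of set 2 reached the lowest of set 1. Means were 109.8 ± 13.5 in set 2 and 224 ± 19.3 in set 1 (SD, n = 4 each), 2.05-fold lower (log2 change -1.04, SE 0.122, limma adjusted p = 0.000681).

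SOCS1 followed CISH, with 156, 175, 148 and 150.4 on the Y244D, Y244A, wild-type and vector arrays of set 2, against 236, 215, 277 and 271 in set 1. The groups did not overlap (log2 change -0.66, SE 0.118, limma adjusted p = 0.00411). SOCS3 had 290.4, 331, 289 and 289 in set 2 against 337, 395, 424 and 449.9 in set 1 (log2 change -0.42, SE 0.116, limma adjusted p = 0.0239). PIM1 had 219.8, 183, 236 and 239.7 in set 2 against 329, 333, 299 and 288 in set 1 (log2 change -0.51, SE 0.119, limma adjusted p = 0.0122). In both, each set 2 array lay below each set 1 array. SOCS2 and PIM2 overlapped between sets, at 85.7 to 139 in set 2 against 114 to 162 in set 1 for SOCS2 (log2 change -0.22, limma adjusted p = 0.263) and 626 to 757 in set 2 against 660.1 to 1031 in set 1 for PIM2 (log2 change -0.17, limma adjusted p = 0.335). Thus 1 gene lay wholly higher and 4 wholly lower in set 2, where 16.3% and 14.9% of all genes did.

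CISH, SOCS1 and BCL6 kept their calls without any 1 array and under the 8 other settings run. SOCS3 lost its call without either vector array, either wild-type array or the set 2 Y244D array (limma adjusted p from 0.0647 to 0.106), and SOCS3 and PIM1 lost theirs when each array was centred on its median (limma adjusted p = 0.0584 and 0.0525). The sets also differed in the spread of their arrays, given above. With that spread as a covariate, BCL6, CISH, SOCS1 and PIM1 were still called and SOCS3 was not (limma adjusted p = 0.156), while SOCS2 (log2 change -0.66) and PIM2 (log2 change -0.61) were. NK cell markers summed to 4870 to 5250 in set 2 and 5590 to 7110 in set 1, epithelial and fibroblast markers to 719 to 935 in set 2 and 827 to 1210 in set 1, and monocyte markers to 398 to 449 in set 2 and 464 to 478 in set 1. Of these, 2 of 10 NK cell markers, 1 of 8 epithelial and fibroblast markers and 3 of 4 monocyte markers were called lower, against 12.7% of all genes. The markers' part in the result was not tested. JAK3 (log2 change 0.09, limma adjusted p = 0.567) and EZH2 (log2 change -0.20, limma adjusted p = 0.565) were not called between sets.

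**Figure D3:**
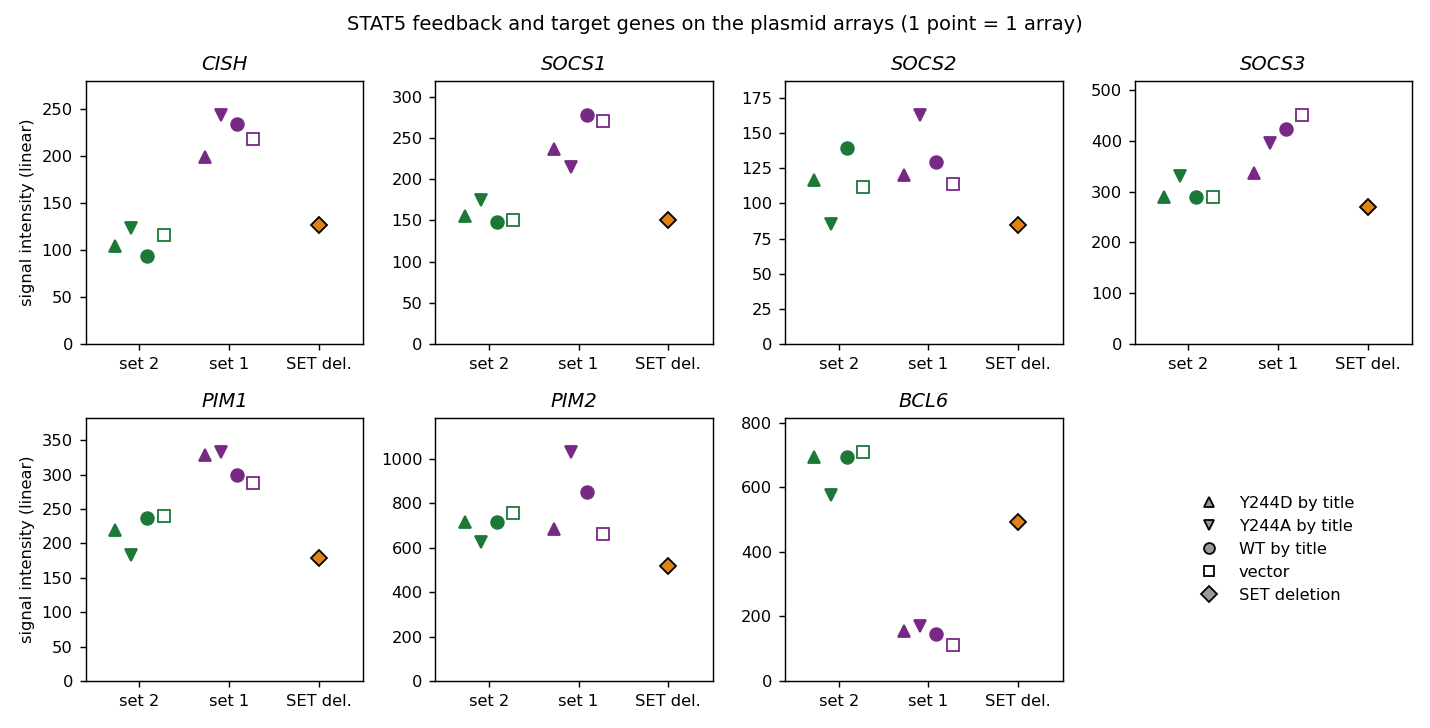
Intensity of the 7 genes on the 9 plasmid arrays, on a linear axis from 0, with set 2, set 1 and the SET deletion array apart and a point for each array by its titled construct. BCL6 is at 575 to 709 in set 2 and 110.1 to 171 in set 1; CISH runs the other way, at 93.7 to 124 in set 2 and 199.7 to 243.7 in set 1.

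The same contrast between sets was present in the vectors alone, which carry no EZH2 plasmid. The vector of set 2 minus that of set 1 gave log2 differences of 2.69 for BCL6, -0.91 for CISH, -0.85 for SOCS1, -0.64 for SOCS3 and -0.26 for PIM1, with 1 array each and no test. Those of PIM2 and SOCS2 were 0.20 and -0.03. Within a set, the mean full-length array minus its vector was -0.12 in set 2 and 0.51 in set 1 for BCL6, -0.13 in set 2 and 0.04 in set 1 for CISH, and 0.08 in set 2 and -0.17 in set 1 for SOCS1, each smaller in size than the difference between the vectors. For PIM2 it was -0.14 in set 2 and 0.35 in set 1, and for SOCS2 it was 0.26 in set 1; both set 1 values were larger than the difference between the vectors.

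Among the lists, the 21 other genes induced by interleukin-2 and STAT5 were mostly lower in set 2, with 13 called lower, 1 called higher and a median of -0.40. Of all genes tested between sets, 12.7% were called lower and 21.8% higher. IL10 (log2 change -1.82, limma adjusted p = 4.99e-05), DUSP6 (-1.37, limma adjusted p = 0.000204), the granule protease gene GZMB (-1.04, limma adjusted p = 0.000357) and OSM (-0.61, limma adjusted p = 0.0111) were lower. The survival gene MCL1 was the 1 that was higher (0.61, limma adjusted p = 0.00708). The 14 other inhibitors had 8 calls higher and 1 lower, with a median of 0.38. PIAS1 (log2 change 0.98, limma adjusted p = 0.00248) and PIAS2 (0.80, limma adjusted p = 0.00679) encode SUMO ligases that restrain STATs, SOCS4 (0.91, limma adjusted p = 0.00981) is a further SOCS gene, CBL (0.87, limma adjusted p = 0.00261) encodes a ubiquitin ligase and PTPN11 (0.67, limma adjusted p = 0.0106) a phosphatase. The lower gene was the phosphatase PTPN6 (-0.40, limma adjusted p = 0.04), named here after its value was seen.

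Of 13 receptor, JAK and STAT genes, 3 were called higher in set 2, JAK1 (log2 change 0.69, limma adjusted p = 0.00565), JAK2 (0.60, limma adjusted p = 0.0247) and STAT5A (0.40, limma adjusted p = 0.0256), and the interleukin-2 receptor alpha chain gene IL2RA was called lower (-0.62, limma adjusted p = 0.00858). Of 9 repressed genes, 2 were called higher, ARRDC3 (1.44, limma adjusted p = 0.00138) and the cell cycle inhibitor CDKN1B (0.46, limma adjusted p = 0.0404). The other 3 calls were lower, CXCR4 (-0.90, limma adjusted p = 0.000827), FOXO3 (-0.55, limma adjusted p = 0.00683) and KLF2 (-0.45, limma adjusted p = 0.0215), the last of which encodes a transcription factor of resting lymphocytes. Of all genes, 21.8% were called higher and 12.7% lower between sets, so that the higher calls in both lists were near the share of all genes.

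**Figure D4:**
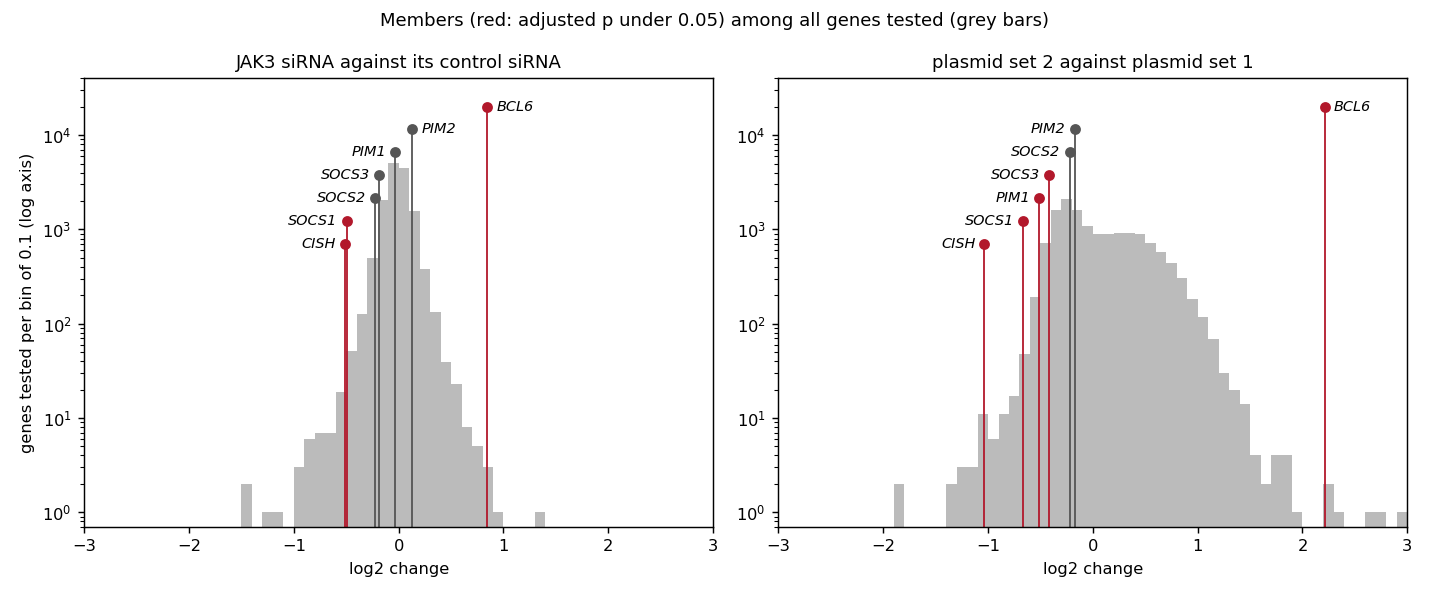
Number of genes tested (log axis) by log2 change, in grey bars, for JAK3 siRNA against its control siRNA and for plasmid set 2 against set 1, with values past the ends of the axis counted in the end bins. Stems mark the 7 genes, red where the limma adjusted p was under 0.05 and dark grey otherwise, at heights without meaning; BCL6 lies at 0.85 with JAK3 siRNA and at 2.21 between sets, and CISH at -0.51 and -1.04.

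Y244D and Y244A arrays, 2 each by title, were not distinguished for any of the 7 genes (0% of 14410 genes called, 0 with an unadjusted p under 0.05). Log2 changes were -0.27 for CISH (SE 0.561), -0.02 for SOCS1 (SE 0.405), 0.01 for SOCS2 (SE 0.304), -0.21 for SOCS3 (SE 0.299), 0.12 for PIM1 (SE 0.343), -0.20 for PIM2 (SE 0.278) and 0.06 for BCL6 (SE 1.14), each with a limma adjusted p of 1. Read from the transfection fields, 5 of these changed sign, to 0.06 for CISH, 0.19 for SOCS1, -0.57 for SOCS2, -0.20 for PIM1 and -0.21 for BCL6, again without a call. These SEs include the difference between plasmid sets. With the set as a block the SE was 0.188 for CISH, 0.191 for SOCS3 and 0.233 for BCL6, and each of the 7 genes still had a limma adjusted p of 1.

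The SET deletion array, a single one with no test, had CISH at 127, SOCS1 at 151, SOCS2 at 84.4, SOCS3 at 269, PIM1 at 178, PIM2 at 517 and BCL6 at 492. By intensity SOCS2, SOCS3, PIM1 and PIM2 were below all 8 other plasmid arrays, as was JAK3 at 156. The other 3 lay within the range of those arrays, BCL6 between the sets and CISH and SOCS1 close to the set 2 vector (117 and 150.4). How many of all genes lay below all 8 was not counted, and the array's log2 interquartile range was 1.86. Ranked among all genes of an array, SOCS2 (percentile 52.1), SOCS3 (89.5) and PIM1 (80.8) lay within the range of the other plasmid arrays. PIM2 (96.4) and JAK3 (76.9) lay below that range. EZH2, whose transcript the plasmid also supplies, was at 1471. Over 14410 genes the array correlated about equally with the means of set 2 (r = 0.97) and set 1 (r = 0.969), across genes, which are not independent replicates.

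Ordered over groups by intensity, BCL6 was highest in plasmid set 2 (667 ± 61.5, n = 4). EZH2 siRNA cells (227 ± 35.5, n = 2), JAK3 siRNA cells (197 ± 0.417, n = 2), the EZH2 arm's control siRNA cells (155 ± 52.8, n = 2) and plasmid set 1 (145 ± 25.6, n = 4) followed, each within 1 SD of its neighbour, and the JAK3 arm's control siRNA cells were last (109.8 ± 12.2, n = 2). For CISH the order began with the control siRNA cells of the JAK3 arm (349 ± 0.873) and of the EZH2 arm (346 ± 37.2), which were within 1 SD. EZH2 siRNA cells (279 ± 13.5), JAK3 siRNA cells (245 ± 5.51), plasmid set 1 (224 ± 19.3) and plasmid set 2 (109.8 ± 13.5) came after them, each more than 1 SD below the one before, although arrays of JAK3 siRNA and set 1 overlapped. This order did not hold by rank among all genes of an array. There CISH in set 1 (percentile 84.8 to 88.3) was level with control siRNA cells (85.1 to 88.0). It lay above EZH2 siRNA cells (82.5 and 83.7) and JAK3 siRNA cells (78.8 and 79.9). PIM2, the gene with the least relative spread among siRNA arrays, ran from 1493 to 1722 there and from 517 to 1031 on plasmid arrays, and PIM1 from 473 to 603 and from 178 to 333. By intensity neither kinase gene overlapped between siRNA and plasmid arrays, nor did SOCS2 (172.6 to 225.9 and 84.4 to 162.4). How many of all genes lay apart in this way was not counted. By rank among all genes of an array, PIM1 did overlap (percentile 92.0 to 93.8 and 79.2 to 93.4), as did SOCS2 (71.2 to 78.3 and 51.5 to 74.3). The siRNA and plasmid arrays also differ in the spread of their intensities, and no test was made between these kinds of array.

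The genes most like each of the 7 were found by Pearson correlation over 16 arrays, each array taken as its deviation from the mean of its own 4 (an siRNA arm or a plasmid set), among 14443 genes. CISH was closest to ADAM19 (r = 0.92), NRARP (r = 0.897) and SLCO4A1 (r = 0.893). SOCS1 was closest to DEPP1 (r = 0.914), OSM (r = 0.865) and ADAM19 (r = 0.862), so that ADAM19 stood near both. BCL6 was closest to OTUD1 (r = 0.944), ATP2B4 (r = 0.932) and INSIG1 (r = 0.923). For SOCS2 the nearest were UBE2V2 (r = 0.927), USP24 (r = 0.923) and H2AZ1 (r = 0.919), and for SOCS3 they were MAST4 (r = 0.822), TMPRSS13 (r = 0.803) and PDE4B (r = 0.793). PIM1 lay nearest TMEM14A (r = 0.94), BUD13 (r = 0.939) and MDM1 (r = 0.936), and PIM2 nearest DCAF7 (r = 0.967), ARAF (r = 0.961) and ANKRD27 (r = 0.959). These are descriptions, since genes on the same arrays share each array's overall spread.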

How the data were processed

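Total RNA behind the 17 NKYS arrays was, per the labels' protocols, purified with TRIzol and a column and labelled with Nugen kits from 100 ng. The deposited values are linear signal intensity per probe set; the sources used here do not give how the authors corrected, normalized and summarised them. They were used as deposited, after log2. The number of arrays limits the precision.

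Of 28869 probe sets, 19310 had 1 gene symbol in the platform annotation, 1752 had several and 7807 had none; the highest-mean probe set stood for each of 18377 genes. Genes under the 30th percentile of mean signal in a fit were left out, except JAK3 and EZH2. Tests used limma 3.58.1 (lmFit and eBayes) in R 4.3.3, two-sided, with Benjamini-Hochberg adjustment over all genes, called at 0.05. A single fit held the 8 siRNA arrays, with the EZH2 pairs as a block (3 residual degrees of freedom), and another held the 8 vector and full-length plasmid arrays (6 for full-length against vector, 5 for sets, 4 for alleles); the SET deletion array entered no fit. Deviations of same-numbered arrays correlated with r = 0.151 in the JAK3 arm, -0.0857 in the EZH2 arm and 0.00795 to 0.919 in the plasmid sets. The fits were tested on simulated data.

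The members and lists were chosen with earlier results of these data known. The text names all 7 members, JAK3 and EZH2, up to 5 called genes of each list by size (or the 2 with the smallest p where none was called) and the 3 genes most correlated with each member. Promoters are RefSeq's for GRCh38.p14, matched by symbol for 6 of 7 members; SOCS2 was not analysed here. Alternatives were quantile normalization, median centring, other filters, averaging the probe sets of a gene, array weights, eBayes with trend and robust fitting, smaller fits of the 4 arrays compared, fits with or without the block, the other reading of the set 2 labels and leaving out each array; the interquartile range as a covariate was added after seeing the data.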

Additional observations from a re-analysis of the deposited data

Results flagged for a closer look

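On the set 2 array titled Y244A, SOCS3 stood apart at 331, above the other 3 arrays of the set (289 to 290.4), and BCL6 stood apart at 575, below them (692 to 709). Each gap was above Dixon's 95% critical value. The array as a whole had a log2 interquartile range of 1.99, against 2.14 to 2.18 on the other 3. Ranked among all genes of an array, BCL6 lay at percentile 96.5 there and 96.5 to 96.7 on the others, so its rank hardly differed. SOCS3 lay at percentile 91.3 there and 85.3 to 86.2 on the others. Each of the 7 genes was looked at in set 1 and in set 2 (4 arrays each), and on the 6 full-length arrays pooled over both sets. This made 21 groups of values, of which chance flags about 1 in 20.

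For 4 genes the full-length plasmid arrays lay on opposite sides of their vector in the 2 sets, on every array of each set. For SOCS3 in set 2 the Y244D (290.4) and wild-type (289.2) arrays barely exceeded the vector (288.7), unlike the Y244A array (331). The mean log2 differences, full-length minus vector, were 0.0694 in set 2 and -0.23 in set 1 for SOCS3, -0.18 in set 2 and 0.15 in set 1 for PIM1, -0.14 in set 2 and 0.35 in set 1 for PIM2, and -0.12 in set 2 and 0.51 in set 1 for BCL6. The difference between sets was not tested, since each set has 1 vector array. How many of all genes moved in this way was not counted, so the pattern does not set these genes apart. Over the genes of the siRNA fit, the median of this log2 difference was -0.04 in set 2 and 0.05 in set 1. The vector had the widest log2 interquartile range of set 2 (2.18) and the narrowest of set 1 (1.79), and the part of this was not tested.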

How the results depend on the processing

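In the JAK3 siRNA comparison the 200 called genes became 94 (37 higher, 57 lower) without the filter, 699 (324 higher, 375 lower) with array weights, 523 with only the 4 arrays compared, 104 with the replicate block (same-numbered arrays as pairs) and 33 to 45 without 1 array. Of the 7 genes, 3 were called, 1 (SOCS1) without the filter and 0 without any 1 array. The BCL6 call was lost with quantile normalization (adjusted p = 0.0635), median centring (0.0526), no filter (0.197), trend and robust fitting (0.307) and the replicate block (0.106), at log2 changes of 0.84 to 0.85; SOCS1 kept its call in all 9 alternatives that left out no array.

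With EZH2 siRNA the 136 calls became 56 with quantile normalization, 0 without the filter, 230 with trend and robust fitting, 0 with array weights, 217 with only its 4 arrays (then BCL6, 1 of the 7, was called), 20 with no replicate block and 0 to 1511 without 1 array, which gave 0 to 3 calls among the 7; each such fit rests on 1 pair, with its error borrowed from the JAK3 arm. SOCS2 turned to 0.00928 with quantile normalization. Without 1 array the log2 change ranged from -0.11 to 0.0815 for SOCS2, -0.0414 to 0.46 for SOCS3 and -0.15 to 0.0736 for PIM2, and with JAK3 siRNA from -0.11 to 0.0406 for PIM1. The 53 calls of the difference between siRNA effects became 15 without the filter, 19 with a replicate block in both arms and 14 to 323 without 1 array, with 0 to 1 among the 7; BCL6 then ranged from -0.25 to 0.78.

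Between plasmid sets the 4966 calls became 9530 with array weights, 1583 with the interquartile range as a covariate (added after seeing the data) and 1680 to 8353 without 1 array, with 4 to 5 of the 7 called. Median centring left 3 of the 5 (BCL6, CISH and SOCS1), and quantile normalization added PIM2 (-0.44, adjusted p = 0.0101). Full-length against vector and the alleles gave 0 calls under every alternative run, with the plasmid set as a replicate block too. There PIM1 turned to 0.000401 with median centring, and SOCS1 to 0.0509 with quantile normalization for the alleles, whose 5 turned values from the transfection fields were 0.0602 for CISH, 0.19 for SOCS1, -0.57 for SOCS2, -0.20 for PIM1 and -0.21 for BCL6. Without 1 array, full-length against vector ranged from -0.50 to 0.41 for CISH, -0.47 to 0.38 for SOCS1, -0.40 to 0.24 for SOCS3, -0.14 to 0.12 for PIM1 and -1.15 to 1.53 for BCL6. The allele difference ranged from -0.76 to 0.22 for CISH, -0.32 to 0.28 for SOCS1, -0.45 to 0.47 for SOCS2, -0.31 to 0.56 for PIM1, -0.56 to 0.16 for PIM2 and -1.02 to 1.14 for BCL6. By title the EZH2 arrays are pairs, and plasmid arrays of a number share a set; in the JAK3 arm the labels give a shared number and nothing more. The replicate block changed no other call of the 7 genes. The cause of these changes was not tested. Each member had 1 probe set with 1 symbol, so that an analysis by probe set gave nothing more.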
